A study of Rattus norvegicus with 19 samples.

Results

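The genes described here are 10 genes of luteinizing hormone (LH) signalling in rat Leydig cells: the LH receptor gene Lhcgr, the hormone gene Insl3, and Gnas, Prkaca, Prkar1a, Prkar2a, Prkar2b, Pde4b, Pde4d and Crem of the cyclic AMP (cAMP) cascade. They were taken as every probe set whose single gene symbol in the platform annotation is one of these names, which gave 25 of the 31042 probe sets tested, for 10 of 14217 named genes. Total RNA of Sprague-Dawley rat cells had been read on 19 Affymetrix rat arrays, on which a probe set of short oligonucleotides gives 1 signal for 1 or more transcripts. There were 5 groups: stem cells of bone on 3 arrays, and Leydig cells labelled stem on 5, progenitor on 3, immature on 4 and adult on 4. No allele or treatment is named for any of them. Nothing in the sources used here gives the age of the animals or how the cells were isolated or cultured, and the groups cannot be told apart from such differences. The labels do not name separate animals or cultures, and the tests therefore speak for these arrays and their spread, which may be technical.

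Leydig cells lie between the seminiferous tubules of the testis and make testosterone. LH from the pituitary binds its receptor on the Leydig cell surface, the stimulatory G protein (its alpha subunit is encoded by Gnas) switches on adenylyl cyclase, and cAMP releases the catalytic subunits of protein kinase A (PKA) from their regulatory subunits. PKA then phosphorylates enzymes and CREB-family transcription factors, while phosphodiesterases of the PDE4 family break cAMP down. Insl3 is a relaxin-like peptide hormone of Leydig cells, best known for its part in the descent of the testis.

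The unit throughout is the deposited MAS5 signal, a linear intensity. Changes are given on the scale log2(signal + 16) with their standard error (SE), so that the change of a dim gene is understated. A difference counted as called where its adjusted p was under 0.05 in the limma model of all 19 arrays. Where a gene has several probe sets, the brightest on average stands for it, and the other probe sets are given where they were called or disagree. Signals of different probe sets were not set against each other, because each has its own probes.

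Some arrays stood apart. On progenitor replicate 3 the 3' probes of beta-actin read 6.346 times the 5' probes (1.026 to 2.951 times elsewhere), and those of GAPDH 1.857 times. Immature replicate 4 had the next highest GAPDH ratio, 1.524, above a range of 1.06 to 1.334 on the remaining arrays, and its mean correlation with the progenitor arrays (r = 0.972 across probe sets) was above that with the other immature arrays (0.959). The hexokinase ratio picked out other arrays: it was highest on stem replicate 3 (20.38) and immature replicate 1 (18.541), 11.36 on progenitor replicate 3, only 2.781 on immature replicate 4, and 2.425 to 9.732 on the rest. Immature replicate 4 also had the highest leukocyte (5554 against 2155 to 3485), erythroid (5363 against 2494 to 3879) and endothelial (887.4 against 311.3 to 408.6) marker sums of its group. Of 28 pairs within groups, 26 had a median absolute log2 difference of 0.102 to 0.328 across the 5243 bright probe sets compared. The other 2 pairs were closer, at 0.064 for bone stem replicates 2 and 3 and at 0.089 for immature replicates 2 and 3. Whether such a pair is 1 RNA sample measured again was not tested.

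The labels were set against marker genes. The summed signal of 6 Leydig markers (Star, Cyp11a1, Cyp17a1, Hsd3b1, Hsd17b3 and Nr5a1) was 60.6 to 586.7 on bone stem arrays, 347.3 to 1567 on stem, 9887 to 15876 on progenitor, 9119 to 15819 on immature and 15409 to 24017 on adult arrays. In the cells labelled stem Leydig 4 of the 6 had a group mean under 16, the exceptions being Star at 739.6 and Nr5a1 at 77.4. Markers of other cells moved too. The 12 leukocyte markers summed to 7466 to 9669 on bone stem, 267.8 to 329.0 on stem, 4883 to 6084 on progenitor, 2155 to 5554 on immature and 472.3 to 1026 on adult arrays. The 11 measured germ cell markers summed to 85.3 to 100.7 on stem, 211.9 to 453.4 on progenitor, 509.4 to 1230 on immature and 1539 to 3348 on adult arrays. Smooth muscle markers (8) summed to 6377 to 13853 on stem arrays and to 786.2 to 2269 on progenitor, immature and adult arrays, and 6 measured erythroid markers to 15.2 to 61.2 on stem and 3464 to 5397 on progenitor arrays. Endothelial markers (9 measured) summed to 330.5 to 515.3 on stem, 1061 to 2012 on progenitor, 311.3 to 887.4 on immature and 621.8 to 3106 on adult arrays. Sertoli markers (6 measured) summed to 442.6 to 724.6 on stem and 1407 to 2419 on adult arrays, and 8 mesenchymal markers to 3359 to 6374 over all 19 arrays. Within that last sum the members went opposite ways: in progenitor against stem cells 5 of the 8 were lower (Thy1 from 2040 to 97.45 among them) and 3 higher (Vcam1 from 13.19 to 717.6), both examples chosen after their values were seen. No marker was at 0 in any group mean. In such mixed bulk samples, fewer cells of a type and less RNA per cell cannot be told apart. The part of other cells in the results was not tested, and marker sums given beside a gene are a description.

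Of the 3 successive steps of the lineage, that from stem to progenitor cells had the most of the 10 genes called. In progenitor against stem cells 6 of the 10 genes were higher (Lhcgr, Insl3, Prkaca, Prkar1a, Prkar2b and Crem), Pde4b was lower and 3 were not called. Of all probe sets 36.7% were called there, 22.0% higher and 14.7% lower. With quantile normalization or median centring of the arrays in place of the deposited scaling, 6 of the 10 genes were higher and 2 or 3 lower. In these counts Prkar1a stands by its brightest probe set, while another of its probe sets was called lower. In immature against progenitor cells none of the 10 was called by limma, where 1.30% of all probe sets were (0.876% higher, 0.425% lower). There 2 genes, Pde4d and Crem, had an unadjusted p under 0.05. In adult against immature cells Prkaca was higher and Pde4d and Crem lower, where 21.1% of probe sets were called (8.05% higher, 13.0% lower). With median centring that split became 4 higher and 1 lower, since Gnas, Prkar1a and Prkar2a passed as higher and Crem no longer passed; the 4 higher were these 3 and Prkaca. In adult against stem cells 7 were higher and 1 lower, with 41.8% of all probe sets called (21.3% higher, 20.5% lower). In stem Leydig against bone stem cells Prkar2b, Pde4b and Crem were lower and none higher, where 18.5% of probe sets were called (9.79% higher, 8.73% lower).

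The median log2 difference of the 10 genes was 0.90 in progenitor against stem cells, -0.03 in immature against progenitor, 0.19 in adult against immature, 1.30 in adult against stem and -0.16 in stem against bone stem cells. Over all probe sets the medians were 0.08, 0.01, -0.07, 0.02 and 0.05. Median centring moved the median of all probe sets to -0.15 in progenitor against stem and to 0.11 in adult against immature cells. The comparisons share arrays: the adult against stem difference is made of the same arrays as the steps.

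**Figure D1:**
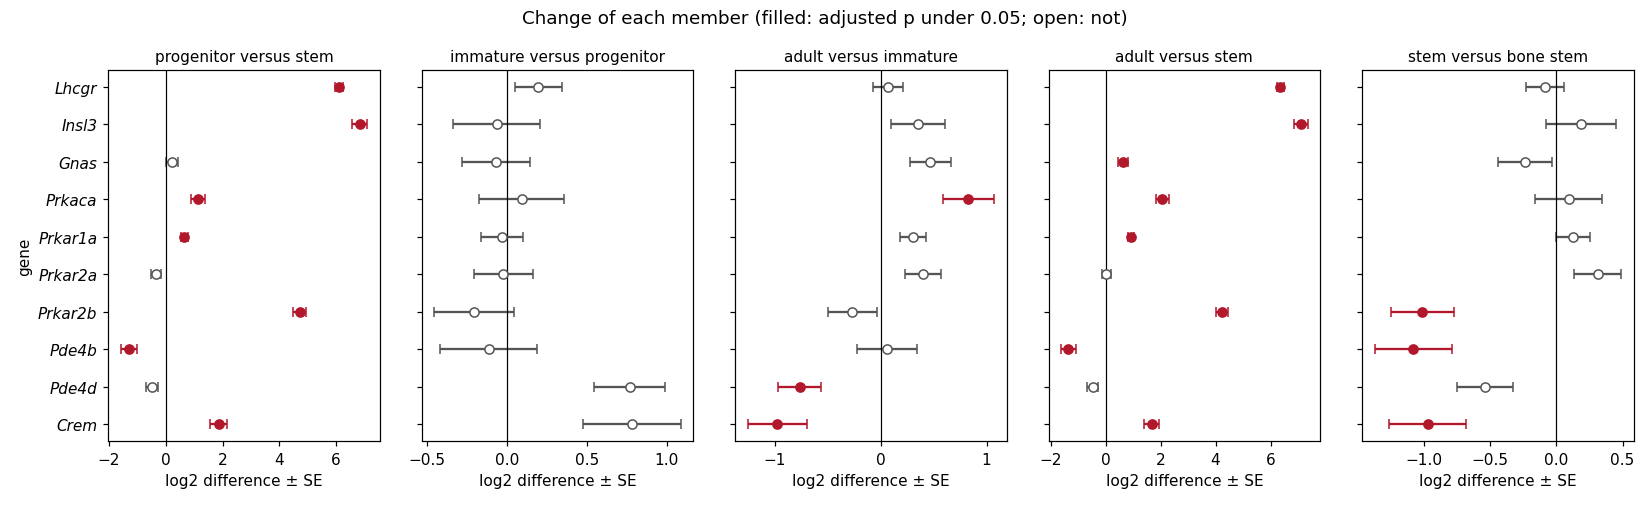
Log2 difference ± SE of the 10 genes in the 5 comparisons, 1 panel each, filled where the adjusted p is under 0.05. Lhcgr, Insl3 and Prkar2b stand farthest to the right in progenitor against stem (6.09, 6.83 and 4.71), no gene is filled in immature against progenitor, and the panels have separate axes.

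The receptor and the hormone rose together at the first step, and neither was called at the later steps. Lhcgr encodes the receptor through which LH acts on the cell. Its signal was 11.7, 9.27, 14.4, 15.4 and 9.22 on the 5 stem arrays and 15.9, 12.6 and 12.3 on the 3 bone stem arrays. It was 1823, 2326 and 1581 on progenitor, 1634, 2457, 2392 and 2280 on immature, and 2195, 2075, 2319 and 2518 on adult arrays. All 11 later arrays lay above all 8 stem and bone stem arrays, and the 3 later groups overlapped. The difference between progenitor (1910 ± 380, SD, n = 3) and stem cells (12 ± 2.85, SD, n = 5) was 6.09 ± 0.14 on the log2 scale (adjusted p = 4.32e-17). The ratio of those mean signals, 159, rests on stem signals that have no tested floor. Immature against progenitor cells differed by 0.20 ± 0.15 (adjusted p = 0.691), adult against immature by 0.07 ± 0.14 (adjusted p = 0.796), and stem against bone stem cells by -0.08 ± 0.14 (adjusted p = 0.791).

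A second Lhcgr probe set, 1369033_at, also rose. It was 2.57 ± 0.43 higher in progenitor than in stem cells (adjusted p = 6.8e-05) and 3.34 ± 0.40 higher in adult than in stem cells (adjusted p = 5.28e-07). On progenitor arrays it read 198.6, 202.0 and 21.9, the low value on replicate 3, the array with the high 3' to 5' ratio. Immature replicate 4, at 88.6, was the lowest of its group, beside 102.5, 258.0 and 242.9. Without these 2 arrays the progenitor difference was 3.41 ± 0.28 (adjusted p = 2.22e-08). The parts of RNA quality and of other cells in the low values were not tested.

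Insl3, with 1 probe set, followed the same course. It read 10.96, 23.9, 11.7, 17.1 and 15.04 on stem and 11.3, 13.1 and 10.5 on bone stem arrays. Progenitor arrays read 2656, 4247 and 3985, immature arrays 1602, 4075, 4291 and 4738, and adult arrays 4207, 3834, 5884 and 3703. No later array came near a stem array, and immature replicate 1 was the lowest of the 11 later arrays. Progenitor cells (3630 ± 853, SD, n = 3) were 6.83 ± 0.26 above stem cells (adjusted p = 5.41e-14) and adult cells (4407 ± 1007, SD, n = 4) 7.11 ± 0.24 above them (adjusted p = 2.78e-15). The step to immature cells was -0.07 ± 0.28 (adjusted p = 0.968) and that to adult cells 0.35 ± 0.25 (adjusted p = 0.392). Without immature replicate 1 these 2 small steps were 0.29 ± 0.19 and -0.01 ± 0.18, neither called. The sign of the step to immature cells also turned without progenitor replicate 2 (0.061) or 3 (0.016) and with array weights (0.092). Immature replicate 1 had a hexokinase 3' to 5' ratio of 18.541, a beta-actin ratio of 1.555 and the lowest Leydig marker sum of its group (9119), whose part was not tested.

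The promoters of the receptor and the hormone gene are printed because these genes moved together. They were searched on both strands, in RefSeq windows of 250 bases before each gene's start in the rat assembly GRCr8, for 4 motifs. The cAMP response element TGACGTCA and its core TGACG, which lies inside it, are bound by CREB-family factors. AGGTCA is the core bound by nuclear receptors, and AAGGTCA, which contains it, is the form extended by a base that NR5A1, the steroidogenic factor of Leydig cells, prefers. Capitals mark a match.
Lhcgr: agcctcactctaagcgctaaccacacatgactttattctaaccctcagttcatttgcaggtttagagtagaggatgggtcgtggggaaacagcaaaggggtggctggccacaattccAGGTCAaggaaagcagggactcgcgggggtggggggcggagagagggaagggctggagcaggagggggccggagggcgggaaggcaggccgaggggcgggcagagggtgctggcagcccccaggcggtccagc
Insl3: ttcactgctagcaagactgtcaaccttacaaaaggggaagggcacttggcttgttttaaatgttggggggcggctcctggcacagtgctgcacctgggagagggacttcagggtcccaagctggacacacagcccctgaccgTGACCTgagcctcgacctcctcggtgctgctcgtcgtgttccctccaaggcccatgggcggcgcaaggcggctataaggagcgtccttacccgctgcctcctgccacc
The Lhcgr window lies on the plus strand at chr6:11415165-11415414 and holds AGGTCA at 133 to 128 bases before the start. The Insl3 window, on the plus strand at chr16:18432939-18433188, holds it on the other strand, where it reads TGACCT, at 108 to 103 bases before the start. Of 33469 windows of this length 14.1% held AGGTCA. Neither window held AAGGTCA (3.99% of windows), TGACGTCA (1.59%) or TGACG (18.2%). A match is a string of letters and not a measured binding site.

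Gnas, the stimulatory G protein gene, was bright in every group, with all 19 arrays between 1765 and 4100. Its means were 2409 ± 605 (SD, n = 5) in stem, 2802 ± 657 (SD, n = 3) in progenitor, 2671 ± 532 (SD, n = 4) in immature and 3650 ± 332 (SD, n = 4) in adult cells, and 2805 ± 492 (SD, n = 3) in bone stem cells. The adult arrays, from 3299 to 4100, lay above all immature and bone stem arrays and overlapped the highest stem and progenitor arrays, at 3327 and 3554. In the order stem, immature, progenitor, bone stem, adult no 2 neighbours differed past the threshold. Adult against immature cells gave 0.47 ± 0.20 (adjusted p = 0.104), which passed with quantile normalization (0.24, adjusted p = 0.0421) and median centring (0.65, adjusted p = 0.0257). Adult against stem cells passed, by 0.63 ± 0.19 (adjusted p = 0.00973). That call was lost when the 3 probe sets of Gnas were averaged (0.28, adjusted p = 0.155). The other 2, 1387906_a_at and 1390263_at, were dim, with no array above 40.8 and 33.7, and neither was called.

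**Figure D2:**
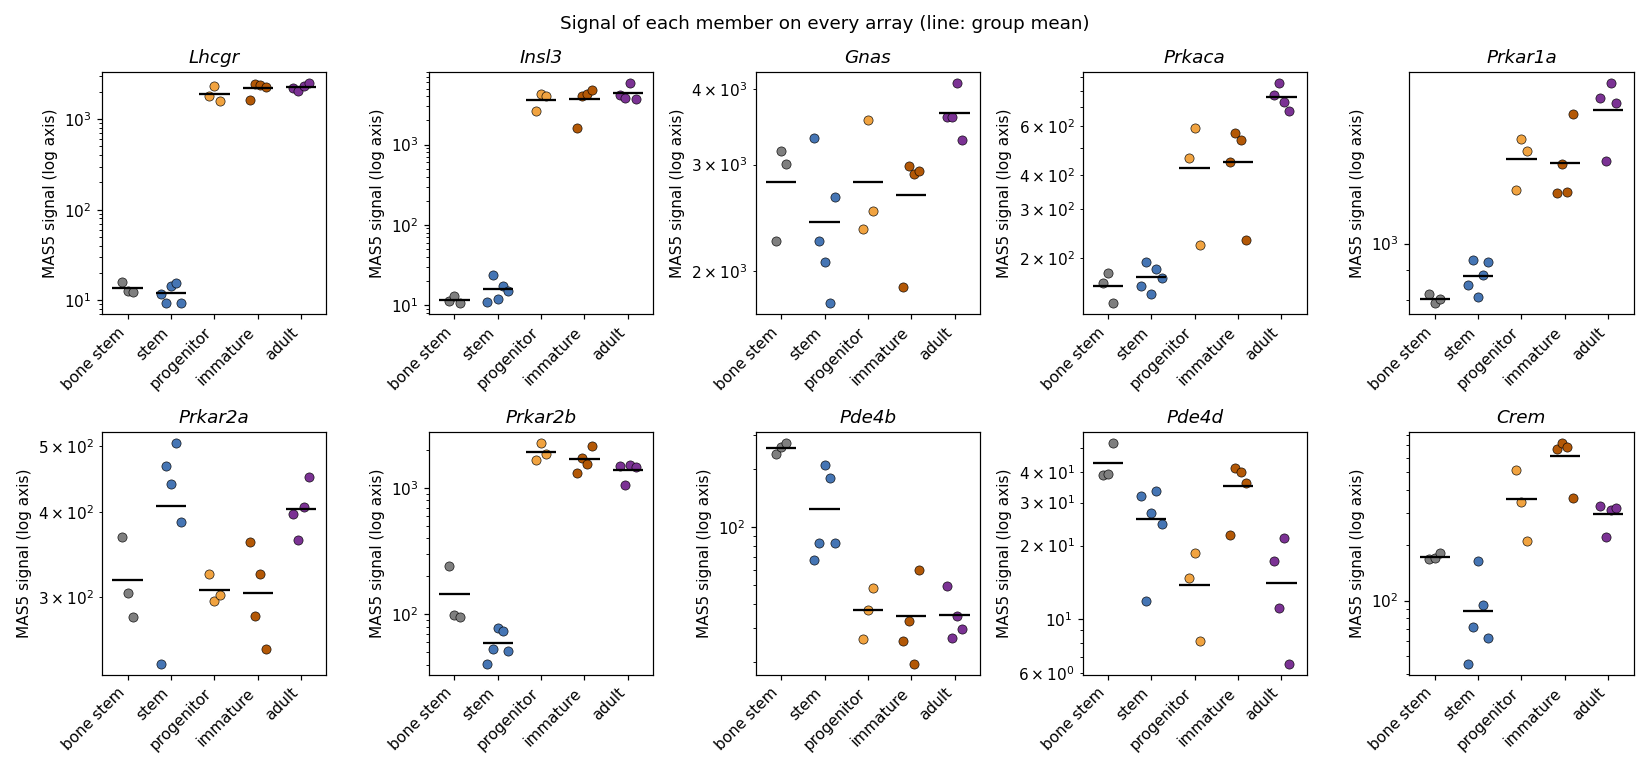
Signal of the representative probe set of each gene on all 19 arrays by group, on a log axis, with a line at the group mean. Lhcgr, Insl3, Prkaca, Prkar1a, Prkar2b and Crem are higher, and Pde4b lower, on all 11 progenitor, immature and adult arrays than on the 8 stem and bone stem arrays. Crem is highest in immature cells (mean 608.2), and Pde4b is highest in bone stem cells (256.3).

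Among the PKA subunits described here, the regulatory subunit gene Prkar2b had the largest change. It encodes RIIbeta, a form of the type II enzyme that anchoring proteins hold at defined places in the cell. It read 40.8, 53.0, 78.4, 73.9 and 51.6 on stem arrays and 243.5, 99.8 and 94.8 on bone stem arrays. The progenitor arrays read 1670, 2269 and 1879, the immature arrays 1324, 1721, 1554 and 2164, and the adult arrays 1502, 1063, 1526 and 1478. Every later array was above every stem array, and adult and progenitor arrays did not overlap. Progenitor cells (1939 ± 304, SD, n = 3) were 32.6-fold above stem cells (59.5 ± 15.97, SD, n = 5) by mean signal, a log2 difference of 4.71 ± 0.24 (adjusted p = 3.27e-12). The later steps were not called: -0.21 ± 0.25 in immature against progenitor cells (adjusted p = 0.838) and -0.27 ± 0.23 in adult against immature cells (adjusted p = 0.48). Adult against progenitor cells gave -0.48 ± 0.25 (adjusted p = 0.19). Stem Leydig cells were 1.01 ± 0.24 below bone stem cells (adjusted p = 0.00456).

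Prkaca encodes the catalytic subunit Calpha. It read 157.8, 192.9, 147.9, 182.2 and 169.7 on stem and 161.9, 176.4 and 137.1 on bone stem arrays. On progenitor arrays it was 459.9, 591.2 and 222.8, on immature arrays 445.5, 564.3, 533.7 and 231.5, and on adult arrays 779.0, 859.0, 732.3 and 679.9. The order of the means ran from bone stem to stem, progenitor, immature and adult cells, and the 2 low values were those of progenitor replicate 3 and immature replicate 4. Progenitor cells were 1.15 ± 0.25 above stem cells (adjusted p = 0.00109) and adult cells 2.07 ± 0.23 above them (adjusted p = 2.41e-07). Without those 2 arrays the progenitor difference was 1.54 ± 0.14 (adjusted p = 9.41e-08). Adult cells were above immature cells by 0.83 ± 0.24 (adjusted p = 0.0184), and by 0.56 ± 0.13 without the 2 arrays (adjusted p = 0.00438). That step did not pass with quantile normalization (adjusted p = 0.0574) or with only immature replicate 4 left out (0.56 ± 0.21, adjusted p = 0.0806). The bone stem and stem arrays (0.09 ± 0.25, adjusted p = 0.878) and the progenitor and immature arrays (0.09 ± 0.26, adjusted p = 0.952) did not differ beyond their spread.

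The 3 probe sets of Prkar1a, the gene of the regulatory subunit RIalpha, disagreed in direction. The brightest, 1388375_at, read 810.9 to 938.1 on stem, 1235 to 1512 on progenitor, 1223 to 1667 on immature and 1387 to 1884 on adult arrays, with no overlap between stem and later arrays. It was 0.65 ± 0.13 higher in progenitor than in stem cells (adjusted p = 0.000314) and 0.92 ± 0.12 higher in adult than in stem cells (adjusted p = 1.09e-06). Adult against immature cells gave 0.31 ± 0.12 (adjusted p = 0.0842), which passed with median centring (0.49, adjusted p = 0.0348) and without immature replicate 4 (0.40, adjusted p = 0.0203). Probe set 1386905_at was instead 0.76 ± 0.20 lower in progenitor than in stem cells (adjusted p = 0.00531), and 0.98 ± 0.20 higher in adult than in immature cells (adjusted p = 0.000983). It read 908.7 to 1055 on stem arrays, 694.9, 720.1 and 347.3 on progenitor, 579.6, 524.3, 577.4 and 301.5 on immature and 916.5 to 1010 on adult arrays. Its lowest 2 values were again on progenitor replicate 3 and immature replicate 4. Without them it was 0.43 ± 0.10 lower in progenitor cells (adjusted p = 0.00225) and 0.77 ± 0.09 higher in adult than in immature cells (adjusted p = 8.8e-06). The third, 1373951_at, was, of the 5 comparisons, called in stem against bone stem cells alone, 0.36 ± 0.11 higher (adjusted p = 0.0293), where 1386905_at was 0.95 ± 0.20 higher (adjusted p = 0.0019) and 1388375_at 0.13 ± 0.13 higher and not called. The mean of the 3 probe sets gave -0.07 ± 0.10 for progenitor against stem cells (adjusted p = 0.631), so no direction is given for the gene at that step. Which transcript forms the 3 probe sets read was not tested.

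Prkar2a, the gene of RIIalpha, was not called in any of the 5 comparisons. Its representative probe set had means of 407.5 ± 103 (SD, n = 5) in stem, 307.5 ± 14.6 (SD, n = 3) in progenitor, 304.6 ± 48.3 (SD, n = 4) in immature, 404.4 ± 36.0 (SD, n = 4) in adult and 317.4 ± 45.4 (SD, n = 3) in bone stem cells. Stem replicate 1, at 239.5, lay below all other arrays, while the other 4 stem arrays read 386.7 to 504.6. Without it progenitor cells were 0.52 ± 0.13 below stem cells (adjusted p = 0.00428) and stem cells 0.48 ± 0.13 above bone stem cells (adjusted p = 0.015), where all arrays gave -0.35 ± 0.18 (adjusted p = 0.139) and 0.31 ± 0.18 (adjusted p = 0.269). Of the other 2 probe sets, both dim, 1371059_at was 0.65 ± 0.20 higher in adult (43.1) than in stem cells (21.7; adjusted p = 0.0101).

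**Figure D3:**
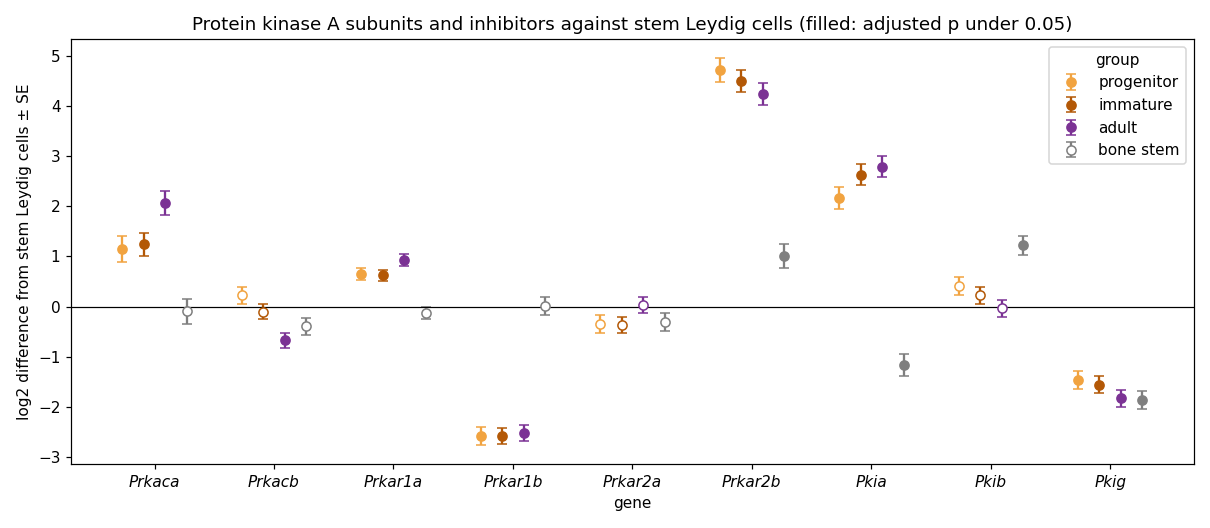
Log2 difference ± SE from stem Leydig cells of all measured PKA subunits and PKA inhibitors of the gene lists, for progenitor, immature, adult and bone stem cells, filled where the adjusted p is under 0.05. Prkar2b (4.71, 4.50 and 4.23) and Pkia (2.17, 2.63 and 2.79) lie above stem cells in the 3 later groups, and Prkar1b (-2.57, -2.57 and -2.52) and Pkig (-1.46, -1.56 and -1.83) below.

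The other PKA genes of the pathway list moved in both directions. Immature against stem cells, a pair drawn in the plot of PKA genes, had 39.7% of all probe sets called (23.5% higher, 16.2% lower). Prkar1b, the gene of the regulatory subunit RIbeta, had a mean of 238.0 in stem and 241.4 in bone stem cells, and of 26.3, 26.3 and 28.5 in progenitor, immature and adult cells (progenitor against stem -2.57 ± 0.18, adjusted p = 3.58e-10). Of the genes for heat-stable PKA inhibitor proteins, Pkia was higher in progenitor (509.7) than in stem cells (107.2) by 2.17 ± 0.22 (adjusted p = 1.31e-07) and Pkig lower (289.2 against 853.0) by 1.46 ± 0.19 (adjusted p = 2.21e-06). Pkib was dim and was not called in the 3 later groups against stem cells, and it was lower in stem (6.25) than in bone stem cells (37.4), by 1.22 ± 0.18 (adjusted p = 4.73e-05). Prkacb, the gene of the catalytic subunit Cbeta, was lower in adult (497.6) than in stem cells (802.5), by 0.67 ± 0.16 (adjusted p = 0.00124), and also lower than in immature cells (751.3), by 0.57 (adjusted p = 0.0152). Prkaca and Prkacb thus went in opposite directions at the step to adult cells, Prkaca losing its call under the 2 settings named for it.

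Of the 2 phosphodiesterase genes, Pde4b was lower in the later cells and Pde4d was dim. Pde4b encodes a cAMP-specific phosphodiesterase that is also abundant in leukocytes. It read 238.0, 259.7 and 271.4 on bone stem arrays and 67.0, 82.4, 208.5, 179.2 and 82.7 on stem arrays. It was 26.2, 37.0 and 48.0 on progenitor, 25.7, 32.5, 19.5 and 59.5 on immature, and 49.1, 26.5, 34.5 and 29.4 on adult arrays. Bone stem arrays were above stem arrays, stem arrays above all later arrays, and the 3 later groups overlapped. Progenitor cells were 1.30 ± 0.29 below stem cells (adjusted p = 0.00128), a ratio of mean signals of 3.34, and adult cells 1.36 ± 0.27 below (adjusted p = 0.000269). Stem cells were 1.08 ± 0.29 below bone stem cells (adjusted p = 0.0118). This last call was lost without bone stem replicate 3 (adjusted p = 0.0553), with the closest pairs of arrays averaged (0.0538) and with the 2 probe sets averaged (-0.52, adjusted p = 0.0883). Leukocyte markers summed to 7466 to 9669 in bone stem cells, 267.8 to 329.0 in stem cells and 4883 to 6084 in progenitor cells. Pde4b was highest in bone stem cells and higher in stem than in progenitor cells. The part of leukocytes in the level of Pde4b was not tested. The second Pde4b probe set, 1369044_a_at, was dim and lower in progenitor (1.48) than in stem cells (15.01) by 0.78 ± 0.18 (adjusted p = 0.00215).

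Pde4d, another member of that family, was dim in all 3 probe sets. Its brightest, 1392968_at, read 39.1, 39.5 and 52.6 on bone stem arrays and 31.8, 11.9, 27.1, 33.5 and 24.6 on stem arrays. It read 14.8, 18.7 and 8.12 on progenitor, 22.1, 41.6, 40.01 and 36.03 on immature, and 17.4, 11.1, 21.4 and 6.57 on adult arrays. The immature arrays lay above all progenitor and adult arrays. The adult against immature difference was -0.77 ± 0.21 (adjusted p = 0.01), while the difference between immature and progenitor cells, of the same size at 0.77 ± 0.22, missed the threshold (adjusted p = 0.105). Progenitor and adult cells were each 0.47 below stem cells without a call at the deposited scaling (adjusted p = 0.0894 and 0.0587), and both passed with quantile normalization (-0.64 and -0.54, adjusted p = 0.015 and 0.0193). Stem against bone stem cells, at -0.54 ± 0.21 (adjusted p = 0.0898), passed with it as well (-0.58, adjusted p = 0.0453). The other 2 probe sets, 1370569_at and 1368750_a_at, were not called in any of the 5 comparisons.

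Crem had its highest group mean in immature cells in all 6 of its probe sets, although none of the 6 was called in immature against progenitor cells. The gene encodes cAMP-responsive activators and, from an internal promoter, the short repressor ICER, which cAMP itself induces. Of its 3 RefSeq windows, 2 are printed because they hold the full response element, in capitals.
Crem window 2: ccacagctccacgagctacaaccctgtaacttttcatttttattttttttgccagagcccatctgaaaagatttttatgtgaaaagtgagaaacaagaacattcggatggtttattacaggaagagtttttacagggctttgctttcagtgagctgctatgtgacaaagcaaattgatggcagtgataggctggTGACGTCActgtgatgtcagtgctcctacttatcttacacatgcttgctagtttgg
Crem window 3: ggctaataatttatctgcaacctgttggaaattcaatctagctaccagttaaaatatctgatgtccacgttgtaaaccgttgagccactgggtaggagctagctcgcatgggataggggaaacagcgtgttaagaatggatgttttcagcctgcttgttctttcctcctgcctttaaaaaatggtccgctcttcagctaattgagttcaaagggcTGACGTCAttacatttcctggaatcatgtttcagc
Window 2, on the plus strand at chr17:58984547-58984796, holds TGACGTCA at 56 to 49 bases before the start, and window 3, at chr17:58985240-58985489, at 35 to 28 bases. The first window, chr17:58933816-58934065, holds only the core TGACG, in 2 places. Of all 33469 windows 1.59% held TGACGTCA. Of the other genes described here, windows of Prkaca and Pde4d held the core TGACG without the full element, and those of Gnas, Prkar1a, Prkar2b and Pde4b held none of the 4 motifs. Windows were found for 9 of the 10 genes, Prkar2a being the one without.

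The brightest Crem probe set, 1378925_at, read 45.4, 71.9, 163.6, 94.3 and 62.6 on stem arrays and 167.4, 170.2 and 182.0 on bone stem arrays. Progenitor arrays read 512.7, 344.0 and 211.5, immature arrays 669.4, 718.8, 683.1 and 361.3, and adult arrays 327.0, 220.9, 311.8 and 317.6. The progenitor, immature and adult arrays were all above the stem arrays, and the immature arrays all above the adult ones. Progenitor cells (356.1 ± 151, SD, n = 3) were 1.86 ± 0.29 above stem cells (87.6 ± 46.0, SD, n = 5; adjusted p = 3.2e-05). Immature cells (608.2 ± 166, SD, n = 4) were 0.78 ± 0.31 above progenitor cells without a call (adjusted p = 0.283). Adult cells (294.3 ± 49.4, SD, n = 4) were 0.98 ± 0.28 below immature cells (adjusted p = 0.0167) and still 1.67 ± 0.27 above stem cells (adjusted p = 2.83e-05).

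The other Crem probe sets gave the same direction at the steps to progenitor and to adult cells. All 6 were called higher in progenitor than in stem cells, by 0.70 to 1.86, and all 6 lower in adult than in immature cells, with differences of -1.15 to -0.57. These probe sets read the same arrays and gene and are not independent. In adult against stem cells 5 of 6 were higher, the exception being 1396545_at (0.10, adjusted p = 0.76). The fall from immature to adult cells of 1378925_at did not pass with median centring (-0.80, adjusted p = 0.0591), with the closest pairs averaged (-0.89, adjusted p = 0.0599), or without adult replicate 2 (-0.85, adjusted p = 0.0555) or immature replicate 2 (-0.88, adjusted p = 0.0508). Without progenitor replicate 3 and immature replicate 4, which read lowest in their groups for 1378925_at, the fall was -1.20 ± 0.25 (adjusted p = 0.00228) and the rise to progenitor cells 2.18 ± 0.28 (adjusted p = 6.04e-06). The same change left 1396545_at uncalled in progenitor against stem cells (0.54 ± 0.27, adjusted p = 0.142).

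Crem is also strongly transcribed in spermatids, and markers of germ and blood cells are set beside it. The germ cell sum was higher on adult (1539 to 3348) than on immature arrays (509.4 to 1230), the opposite of Crem at that step, and it was higher on progenitor (211.9 to 453.4) than on stem arrays (85.3 to 100.7), as Crem was. Leukocyte marker sums differed in the direction of Crem in progenitor against stem, adult against immature and stem against bone stem cells. They were 267.8 to 329.0 on stem, 4883 to 6084 on progenitor and 2155 to 5554 on immature arrays. Adult arrays had sums of 472.3 to 1026 and bone stem arrays of 7466 to 9669. The bone stem arrays had the highest leukocyte sums and read below the progenitor arrays in Crem. Erythroid sums were likewise higher on immature (2494 to 5363) than on adult arrays (273.3 to 704.4). The part of these cells in the level of Crem was not tested. In stem against bone stem cells 1378925_at was 0.97 ± 0.29 lower (adjusted p = 0.0236), 1 more probe set was lower and 4 were not called. The call of 1378925_at was lost without any 1 of the 3 bone stem arrays (adjusted p = 0.0553, 0.0724 and 0.0885 without replicates 1, 2 and 3), without stem replicate 1 (0.0599) or 5 (0.0538), with the closest pairs averaged (0.0886) and with the mean of the 6 probe sets (-0.32, adjusted p = 0.24). For beta-actin the 3' to 5' ratio ran from 2.384 to 2.951 in bone stem and from 1.026 to 1.836 in stem samples, and its part in this difference was not tested.

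**Figure D4:**
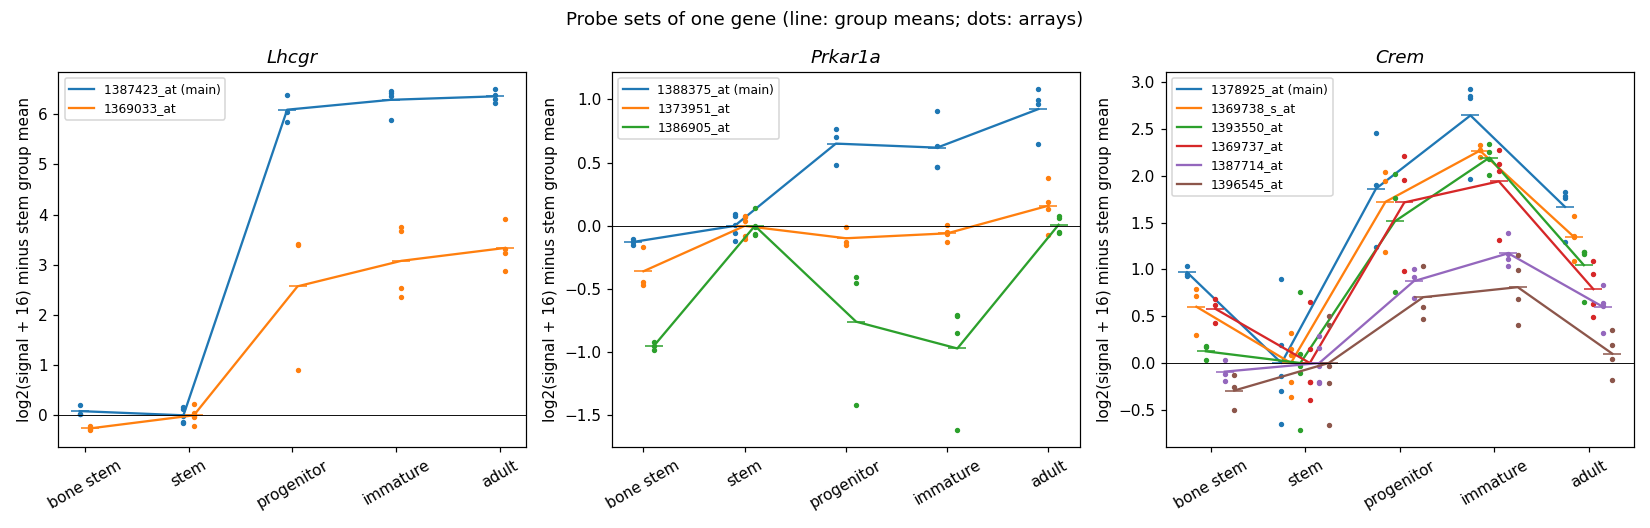
Log2(signal + 16) of each probe set of Lhcgr, Prkar1a and Crem, as the difference from its own stem group mean, with dots for arrays and lines through group means. The 2 Lhcgr probe sets rise together, and the 3 Prkar1a probe sets part at the progenitor stage (0.65 against -0.76 for the outermost). All 6 Crem lines are highest in immature cells, with none called there against progenitor cells.

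The rest of the pathway was described by a list of 117 other genes of cAMP signalling, of which 104 had a named probe set. In progenitor against stem cells 22 were higher and 18 lower, with a median of 0.03, and the split was 21 and 26 with quantile normalization and 16 and 33 with median centring. In immature against progenitor cells 2 were higher and none lower. In adult against immature cells 5 were higher and 19 lower, a split that became 11 and 16 with quantile normalization and 16 and 9 with median centring. In adult against stem cells 24 were higher and 31 lower, and in stem against bone stem cells 18 higher and 8 lower (15 and 11 with median centring). These counts are read beside the shares of all probe sets called, given above, which include many dim and unnamed probe sets.

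Other receptors that act through G proteins moved in both directions. Adcyap1r1, the receptor for the peptide PACAP, went from 131.9 in stem to 20.3 in progenitor cells (-2.04 ± 0.32, adjusted p = 2.75e-05), the parathyroid hormone receptor gene Pth1r from 74.5 to 7.74 (-1.96 ± 0.22, adjusted p = 4.75e-07) and the adenosine receptor gene Adora2b from 107.2 to 22.0 (-1.71 ± 0.21, adjusted p = 1.09e-06). Of the 10 measured receptors of this kind these 3 were lower, 2 were higher and 5 were not called. Adcyap1r1 was also 2.64 ± 0.32 higher in stem Leydig than in bone stem cells (adjusted p = 3.38e-06). Of 11 G protein subunit genes 5 were lower in progenitor cells (Gnai1, Gnai2, Gnb1, Gng2 and Gng5, named after their values were seen) and none higher. For both counts, 36.7% of all probe sets were called in progenitor against stem cells, 22.0% higher and 14.7% lower. Gng2, a gamma subunit gene, was at 157.0 in stem and 11.8 in adult cells (-2.64 ± 0.25, adjusted p = 1.71e-08).

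Of 9 measured genes that tune receptor signalling 3 were higher in progenitor than in stem cells, 1 was lower (Ric8a, from 271.7 to 146.6, named after its values were seen) and 5 were not called. Of 7 genes of the Epac route, which carries cAMP signals past PKA, 1 was higher, 2 were lower (Rap1b and Rap1gap, at -0.56 and -1.28, named likewise) and 4 were not called, where 36.7% of all probe sets were called. Arrb2, the gene of beta-arrestin 2, which uncouples and internalises activated receptors, was at 13.3 in stem and 153.0 in progenitor cells (2.55 ± 0.21, adjusted p = 4.23e-09) and lower again in adult (48.3) than in immature cells (106.0; -0.92 ± 0.20, adjusted p = 0.00208). It was also 2.15 ± 0.21 lower in stem than in bone stem cells (118.1; adjusted p = 1.86e-07). The groups high in Arrb2 were those with the higher leukocyte marker sums, and the part of leukocytes in its level was not tested. Rgs4, a regulator of G protein signalling, was 1.44 ± 0.32 higher in progenitor than in stem cells (adjusted p = 0.00104). Rapgef3, the gene of the cAMP-activated exchange factor Epac1, was at 11.8 in stem, 65.3 in progenitor (1.55 ± 0.21, adjusted p = 5.97e-06) and 124.6 in adult cells (2.34 ± 0.20 against stem, adjusted p = 2.99e-09). Rapgef4, for Epac2, was the one gene named at the step to immature cells, from 8.98 to 42.2 (1.18 ± 0.21, adjusted p = 0.00485). With Rapgef4, the soluble adenylyl cyclase gene Adcy10, named after its values were seen, made up the 2 called there.

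A-kinase anchoring proteins hold PKA near its substrates. Among the measured anchor genes 4 were lower, 2 higher and 8 not called in adult against immature cells. Over all probe sets 21.1% were called in that comparison, 8.05% higher and 13.0% lower. At the step to adult cells Akap12 (794.3 to 392.8; -0.95 ± 0.19, adjusted p = 0.000775) and Akap13 (296.4 to 141.7; -1.01 ± 0.17, adjusted p = 0.000212) were lower, and Akap3 (56.4 to 99.4; 0.68 ± 0.17, adjusted p = 0.00523) and Akap4 (14.2 to 54.5; 1.29 ± 0.18, adjusted p = 1.84e-05) higher. Akap3 and Akap4 are anchors of the sperm tail, and the germ cell marker sum was 509.4 to 1230 on immature and 1539 to 3348 on adult arrays. Its part in these 2 genes was not tested. Akap12 was 2107 in stem cells, 2.34 ± 0.18 above adult cells (adjusted p = 5.95e-10). Pde7a, a further cAMP phosphodiesterase gene, was lower in adult (42.8) than in immature cells (91.8; -0.92 ± 0.19, adjusted p = 0.00111), and Gnai2, of the inhibitory G protein, higher (247.4 to 435.8; 0.82 ± 0.21, adjusted p = 0.00836).

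The transcription factors and targets downstream of PKA were called at the first step about as often as all probe sets. Of 14 CREB-family and coactivator genes 5 were higher in progenitor than in stem cells and none lower: Creb1, Crebl2, Crtc1, Crtc3 and Ep300, named after their values were seen, while 9 were not called. Crtc1, a coactivator of CREB, went from 17.2 to 72.2 (log2 change 1.40). Of 10 early genes that cAMP induces in many cells, Nr4a3, Fosb and Junb were higher, at 0.79, 1.18 and 1.19, none was lower and 7 were not called. The early genes of this paragraph were named after their values were seen. Over all probe sets 36.7% were called there, 22.0% higher and 14.7% lower. The counts of these classes were not taken under the other scalings. At the step to adult cells Nr4a1 (820.6 to 345.2, -1.16) and Sik1 (243.0 to 146.2, -0.67) were lower and Dusp1 higher (741.8 to 1376, 0.87). In stem against bone stem cells 5 of these 10 early genes were higher (Fos, Fosb, Junb, Per1 and Sik1, at 1.07 to 2.21) and none lower. There 18.5% of all probe sets were called, 9.79% higher and 8.73% lower. Crem was called lower there in 2 of its 6 probe sets, and the call of its brightest was lost under several settings. The early genes also respond to handling of cells, and the part of handling was not tested.

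The course of each gene over the 19 arrays was set against 9645 genes of at least median brightness, and the 3 with the highest Pearson correlation are named as a description. The arrays share groups, so a gene that differs between stem and later cells in the same direction scores high whatever else it does. Lhcgr was closest to Cyp17a1 (r = 0.9978), Svs5 (0.9975) and Iqgap2 (0.9961), and Insl3 to Cyp17a1 (0.9976), Cyp11a1 (0.9959) and Svs5 (0.9958). Cyp17a1 and Cyp11a1 encode enzymes of androgen synthesis. Prkar2b was closest to Hsd3b1 (0.9914), also a steroid enzyme gene, Abi3bp (0.9866) and Iqgap2 (0.9861). Prkaca was closest to Ubl5 (0.962), Kcnk3 (0.9617) and Mmut (0.9597), which were all highest in adult cells. Prkar1a was closest to Elovl5 (0.9819), Jun (0.9766) and Hadhb (0.9708), and Crem to Tbc1d8 (0.9373), Hagh (0.9233) and Adamts15 (0.9214), which were all highest in immature cells. Pde4b was closest to Wnt5a (0.96), Gorab (0.9526) and Chmp6 (0.9506), which were all highest in bone stem cells. The highest values were lower for Gnas (Morf4l1, 0.9355; Tmem59, 0.9154; Atp5f1b, 0.902), Prkar2a (Tbcb, 0.8576; Fam136a, 0.80; Yeats4, 0.7929) and Pde4d (Cptp, 0.7312; Ifitm3, 0.7304; Cir1, 0.7227), whose group means differ least or are dim.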

How the data were processed

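RNA of 19 samples was hybridised to Affymetrix rat arrays. The table holds 1 linear intensity per probe set and array, deposited by the authors; MAS5 and GCOS are named in the submitters' processing notes, and the sources used here give no versions and no genome build. On each array the 2% trimmed mean was 100.0, so the table was already scaled. No detection calls were used, so low signals have no tested floor, and the number of arrays limits the precision.

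Of 31099 probe sets, 57 controls were left out. Of the rest, the platform annotation gives 1 gene symbol for 20826, more than 1 for 436 and none for 9780. With limma 3.58.1 (R 4.3.3), log2(signal + 16) was fitted to 5 group means over all arrays, with moderated statistics and an intensity trend. Tests were 2-sided, with Benjamini-Hochberg adjustment over 31042 probe sets, and the fit was tested on simulated data. Tables were made with pandas 2.3.3 and plots with matplotlib 3.10.9 (Python 3.11.15).

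The genes and lists were chosen with earlier results of these data known. All 10 genes were named whatever their result, and the other PKA genes with them. Further pathway genes were named per comparison as up to 4 largest rises and 4 largest falls among called genes whose groups do not overlap and whose brighter group mean reaches the median probe set; names outside this rule are marked. Marker lists cover Leydig, mesenchymal, germ, Sertoli, leukocyte, endothelial, smooth muscle and erythroid cells. The main fit did not treat replicate numbers as pairs. Promoter windows come from RefSeq (GRCr8). Alternatives were other scalings, pseudocounts of 1 and 64, leaving out the dimmest 40% of probe sets, no trend, array weights, fits of 2 groups, a replicate block, averaged probe sets, averaged close arrays, and leaving out arrays. Leaving 2 arrays out for the probe sets other than the brightest was added after seeing the data.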

Additional observations from a re-analysis of the deposited data

Results flagged for a closer look

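Of 75 groups of 4 or 5 arrays checked over the 25 probe sets, 8 held an array whose gap to the nearest other exceeded the limit for a group of that size; chance gives about 1 in 20. Crem 1378925_at read 361.3 on immature replicate 4, where the other 3 read 669.4 to 718.8, and that array also had a GAPDH 3' to 5' ratio of 1.524, ordinary beta-actin (1.7) and hexokinase (2.781) ratios, and the highest leukocyte (5554), erythroid (5363) and endothelial (887.4) marker sums of its group. Adult replicate 2 was low in 3 of the cases: Crem 1378925_at at 220.9, Crem 1393550_at at 35.97 and Prkar2b 1371133_a_at at 1062.7. Gnas 1369897_s_at read 1875.6 on immature replicate 1, an array with a hexokinase ratio of 18.541. The dim probe set Prkar2a 1375620_at gave the other 3, at 11.12 on stem replicate 2, 43.53 on immature replicate 3 and 21.06 on adult replicate 3. What sets these arrays apart was not tested.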

How the results depend on the processing

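Differences under the alternatives were counted for the 10 genes by their brightest probe sets. The count also took in their other called probe sets, without progenitor replicate 3 and immature replicate 4 only. Of all these, 941 kept their direction and side of the threshold, 28 passed only under the alternative, 19 no longer passed and 35 turned sign. The calls of Lhcgr, Insl3 and Prkar2b held in every setting run. Of the 10 genes, 5 were called in adult against immature cells with median centring and 5 with array weights (3 otherwise), and in stem against bone stem cells 5 with array weights, 1 with the closest pairs averaged and 1 to 3 leaving out single arrays (3 otherwise; 1 without bone stem replicate 3). Of the pathway genes in immature against progenitor cells 2 were called, and 1 without the lowest 40% of probe sets, 8 with array weights, 0 with only the 2 groups fitted by limma, 1 with the pairs averaged, 4 without progenitor replicate 3 and immature replicate 4, and 1 to 8 leaving out single arrays (8 without immature replicate 4). Fewer arrays or genes entered several of these; otherwise the cause was not tested. In adult against immature cells 15 (without adult replicate 4) to 23 pathway genes were called leaving out single arrays (24 with all), and in stem against bone stem cells 49 with array weights and 17 with the pairs averaged (26 otherwise). Over all probe sets 404 were called in immature against progenitor cells, and 226 with a pseudocount of 1, 1456 with array weights, 17 with only the 2 groups, 157 with the pairs averaged, 1194 without the 2 arrays named, and 147 (without progenitor replicate 2) to 1304 (without immature replicate 4) leaving out single arrays. In stem against bone stem cells 5749 were called, and 10996 with array weights, 3674 with the pairs averaged, and 3746 (without bone stem replicate 3) to 6320 leaving out single arrays. All turned signs were of uncalled differences except that of Prkar1a in progenitor against stem cells, -0.068 with probe sets averaged. That setting also turned Prkar2a (0.1) and Pde4b (0.049) in immature against progenitor cells and Lhcgr in stem against bone stem cells (0.089). Quantile normalization turned Lhcgr in adult against immature cells (-0.159) and Gnas in stem against bone stem cells (0.147), median centring Prkar2a in adult against stem cells (-0.022), and array weights Insl3 in immature against progenitor cells (0.092). Averaged pairs turned Prkaca in immature against progenitor cells (-0.032) and Pde4b in adult against immature cells (-0.016), and leaving out the 2 arrays turned Prkaca (-0.026) and Prkar2a (0.047) in immature against progenitor cells. Leaving out single arrays, immature against progenitor cells ran from -0.107 to 0.059 for Prkar2a, -0.276 to 0.293 for Insl3, -0.185 to 0.114 for Gnas, -0.129 to 0.027 for Prkar1a, -0.299 to 0.374 for Prkaca and -0.331 to 0.031 for Pde4b. Adult against immature cells ran from -0.091 to 0.272 for Pde4b, -0.064 to 0.13 for Lhcgr and -0.01 to 0.509 for Insl3, and adult against stem cells from -0.145 to 0.112 for Prkar2a.

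Replicate numbers recur across groups, but same-numbered arrays did not all deviate together (r = -0.0558, 0.163 and 0.264 in progenitor against stem cells). In immature against progenitor cells r was 0.223, 0.0572 and 0.0862, and each array correlated best with its own number, a hint from the data and not the design. Replicates 2 and 3 did so as well in progenitor against stem cells, and replicate 3 in adult against stem cells. In the other 3 comparisons at least 1 r was below 0. With the replicate block 7, 0, 3, 8 and 2 of the 10 genes were called in the 5 comparisons (7, 0, 3, 8 and 3 without it), Crem in stem against bone stem cells no longer passing (-0.85, adjusted p = 0.106), and 10076, 387, 6060, 11978 and 4679 of all probe sets.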
